A study of Mus musculus with 6 samples.

Results

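Epithelial cells are held together by several kinds of junction. Tight junctions seal the space between neighbouring cells and are built from claudins, a family of membrane-spanning proteins, together with occludin and the zonula occludens scaffolds. Adherens junctions join the actin belts of neighbouring cells through E-cadherin and the catenins, desmosomes join their keratin filaments, and gap junctions are channels of connexins through which small molecules pass. In the lung these contacts line the airways and the alveoli, where they keep air and fluid apart. The genes described here are the claudins other than the endothelial Cldn5, the zonula occludens proteins, occludin and their polarity partners, E-cadherin, the catenins and their actin linkers, the desmosomal genes and the connexins. The rule that picks them uses gene symbols alone and no measured value, but it was chosen with earlier results of these data known. By that rule 97 of 25697 array probes belong to the group, for 65 of 18138 gene symbols. The symbols Cgn and Pkp4 were part of the rule, and the table has no row for either.

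Lung RNA of male FVB pups (FVB/N in the study's methods), taken on postnatal day 6, was read on Illumina MouseRef-8 BeadChips, with 1 array for each mouse and 3 mice in each group. The mice labelled hSRY-OFF stand for the Signalox-hSRY transgene in its silent, unrecombined form, a single copy at the H11 locus. In hSRY-ON mice Cre recombinase carried over in the egg of a Ddx4-Cre mother had recombined that transgene in the one-cell embryo, after which the CAG promoter, active in most cell types, drives human SRY together with EGFP. The hSRY-ON mice on the arrays were chosen not to carry Ddx4-Cre themselves. Whether the hSRY-OFF mice carried the silent transgene rests on their label, since the study also calls littermates without it controls. The transgene came from 1 line at 1 site, and its promoter is not specific to the lung, so effects of human SRY within the lung and elsewhere in the body cannot be told apart. The mice of a group are biological replicates per the study.

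Between 13191 and 14134 probes were detected per array at a detection p under 0.05, and between 49 and 56 of the 97 junction probes. The groups separated along the first principal component, with 67.9% of the variance. Markers of alveolar type I cells (Pdpn, Aqp5 and Ager) and of type II cells (Sftpc, Sftpb and others) were detected, as the label lung asks. Of the type I markers searched, Hopx and Rtkn2 were not detected on any array. In whole lung, fewer cells of a type and less RNA per cell cannot be told apart, which holds for every value below. Values are log2 intensities after background correction and quantile normalization. A change is the hSRY-ON mean minus the hSRY-OFF mean on that scale, and a probe is called where the adjusted p of limma, over all 13841 probes detected on at least 3 arrays, is under 0.05. The number of arrays limits the precision, and a single gene taken alone, 3 arrays against 3 in an exact permutation test, could not go below p = 0.1.

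Most of the claudins tested, which leave out Cldn5, rose in hSRY-ON lungs, whereas the core of the adherens junction did not. The other tight junction, desmosome and connexin probes were called at 20.0%, 28.6% and 27.3%, beside 26.9% of all probes tested. Of the 97 junction probes 54 could be tested, for 40 of the 65 genes. Among them 16 probes of 12 genes were higher and 5 probes of 4 genes were lower in hSRY-ON. Of all probes tested 26.9% were called, 13.6% higher and 13.3% lower, against 38.9%, 29.6% and 9.26% of the junction probes. The claudins alone gave 11 of the 16 higher calls. The median change of the 54 junction probes was 0.12, beside -0.03 over all probes tested. In 29 of the 54 (53.7%) the values of the groups did not overlap, beside 46.6% of all probes. The remaining 25 genes had no probe that passed the detection filter.

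**Figure D1:**
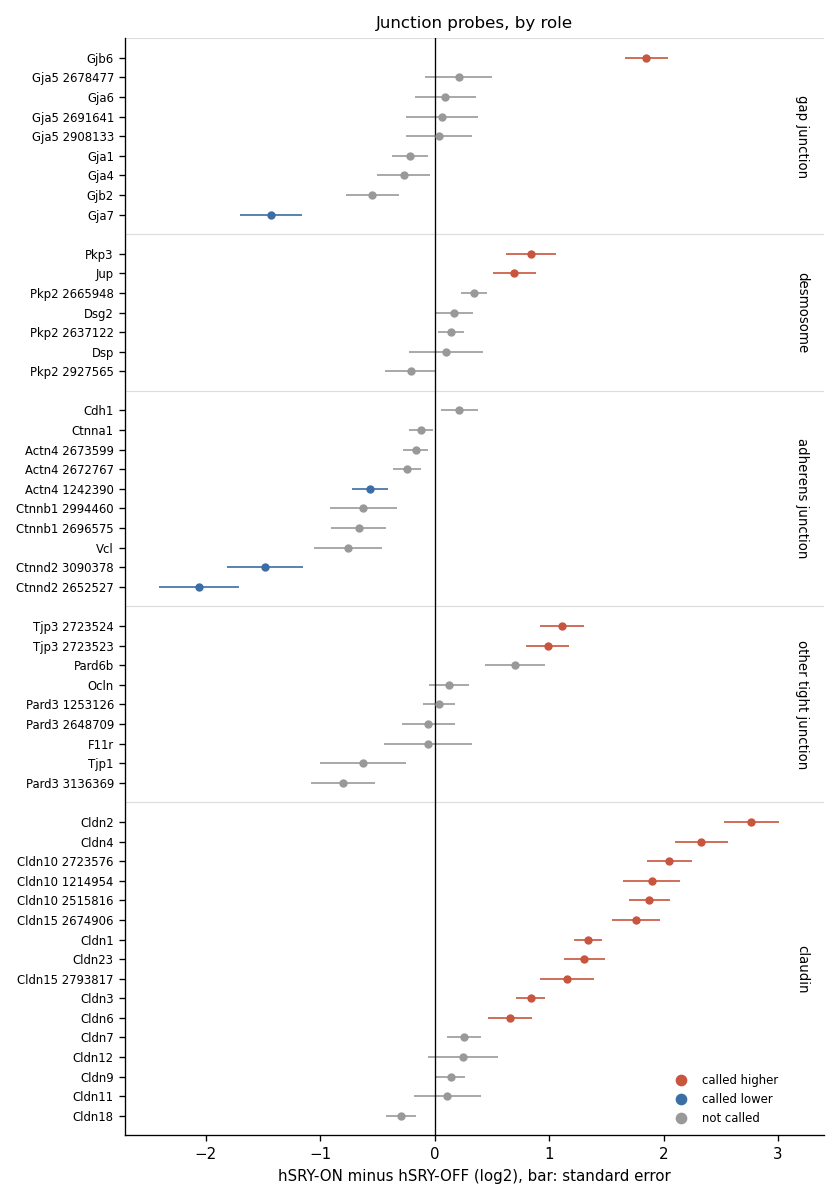
Change of tested junction probes (hSRY-ON minus hSRY-OFF, log2, x axis), grouped by junction class (y axis), where points are the fitted changes, bars their standard errors and colour the call. Claudin points lie mostly to the right of 0, with a median of 1.23, and the adherens junction points mostly to the left, with a median of -0.59.

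Upstream sequence is shown for some of the claudins whose probes rose, so that the genes can be placed in the genome and their letters compared. The stretch of 250 bases before the RefSeq start site is printed 5′ to 3′ on the strand of the gene (RefSeq, GRCm38.p6). Cldn3 and Cldn4 are neighbours on chromosome 5 and are transcribed away from each other. Cldn15 lies on the same chromosome and Cldn2 on chromosome X. Capitals mark letters found by searching both strands for ACCGGT (core of the grainyhead motif), CACCTG (the E-box bound by Snai and Zeb factors), AACAAT (the core of SRY and SOX sites) and TGANTCA (AP-1). No matches overlapped.
Cldn2 chrX:139800558-139800807 (+): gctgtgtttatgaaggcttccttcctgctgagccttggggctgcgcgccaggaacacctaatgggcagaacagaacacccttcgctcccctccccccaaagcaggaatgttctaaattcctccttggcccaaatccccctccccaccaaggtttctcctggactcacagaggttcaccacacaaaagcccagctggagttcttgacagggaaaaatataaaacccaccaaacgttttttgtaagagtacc
Cldn3 chr5:134985964-134986213 (+): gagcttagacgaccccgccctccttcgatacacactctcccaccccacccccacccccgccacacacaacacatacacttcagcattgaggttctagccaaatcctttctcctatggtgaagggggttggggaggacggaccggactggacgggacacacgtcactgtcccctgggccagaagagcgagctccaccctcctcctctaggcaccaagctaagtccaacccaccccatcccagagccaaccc
Cldn4 chr5:134946935-134947184 (-): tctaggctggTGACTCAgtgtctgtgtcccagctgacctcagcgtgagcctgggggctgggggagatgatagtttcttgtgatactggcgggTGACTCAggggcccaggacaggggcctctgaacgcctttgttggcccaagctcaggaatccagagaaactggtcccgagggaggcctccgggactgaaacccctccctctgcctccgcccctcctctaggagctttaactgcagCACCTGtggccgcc
Cldn15 chr5:136967619-136967868 (+): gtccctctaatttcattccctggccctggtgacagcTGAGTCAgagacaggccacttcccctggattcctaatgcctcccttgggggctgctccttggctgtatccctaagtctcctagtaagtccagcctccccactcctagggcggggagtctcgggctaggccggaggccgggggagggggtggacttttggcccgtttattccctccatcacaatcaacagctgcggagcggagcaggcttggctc

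In these stretches Cldn4 held TGANTCA at 240 and at 158 bases before its start and CACCTG at 14 bases before it. Cldn15 held TGANTCA at 214 bases before its start. The stretches of Cldn2 and Cldn3 held none of the letters searched, and neither did those of Cldn1 and Cldn10, which are not printed. Counted over windows that also take in 50 bases after the start, 41 of the 65 junction genes had 61 windows. Of these, 34.4% held CACCTG, beside 20.2% of 32851 windows of all genes. TGANTCA stood in 8.20% of the junction windows and 7.81% of all windows, ACCGGT in 3.28% and 2.33%, and AACAAT in 6.56% and 10.7%. Among the 8 windows of claudins called higher, 3 held CACCTG, 2 held TGANTCA, and the other letters were found in 0 windows. Of the 24 windows of junction genes tested and not called, 33.3% held CACCTG and 8.33% TGANTCA. These are matches of letters within a short window, not sites.

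Of the 26 claudin probes, for 19 genes, 16 could be tested, for 13 genes. Among them 11 probes of 8 genes rose in hSRY-ON lungs and 0 fell (limma). At an unadjusted p under 0.05 these numbers were also 11 and 0. This is 68.8% of the claudin probes tested, beside 13.6% of all probes tested that were higher. The claudin median was a change of 1.23, beside -0.03 over all probes, and 75.0% of the probes had groups that did not overlap, beside 46.6%. The genes that rose were Cldn1, Cldn2, Cldn3, Cldn4, Cldn6, Cldn10, Cldn15 and Cldn23. Array values are given in the order of replicate 1 to 3.

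**Figure D2:**
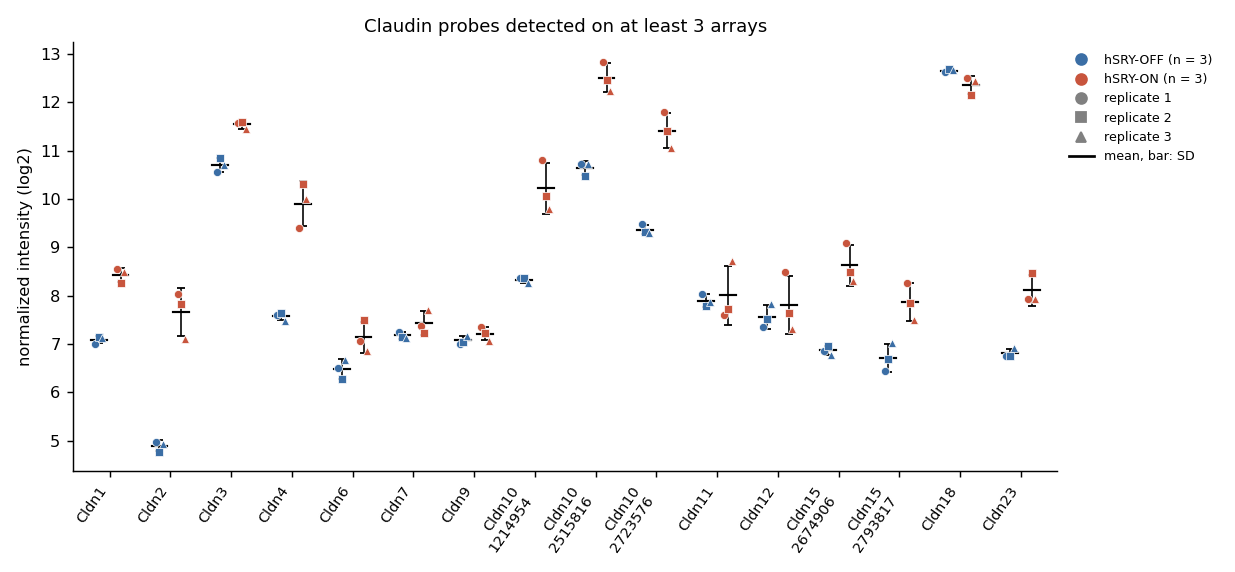
Normalized log2 intensity (y axis) of each claudin probe detected on at least 3 arrays (x axis) on the 3 hSRY-OFF and 3 hSRY-ON arrays, with the mean and SD of each group. The hSRY-ON points of Cldn1, Cldn2, Cldn3, Cldn4, Cldn6, Cldn10, Cldn15 and Cldn23 all lie above the hSRY-OFF points, and those of Cldn18 all lie below.

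Cldn2, a claudin that forms pores for cations and water in leaky epithelia, was detected in hSRY-ON lungs but not in hSRY-OFF lungs. Cldn2 read 4.98, 4.76 and 4.94 on the hSRY-OFF arrays and 8.04, 7.83 and 7.10 on the hSRY-ON arrays. It was detected on 0 of 3 hSRY-OFF and on 3 of 3 hSRY-ON arrays, so only a bound can be given for its change. With means of 4.89 ± 0.11 and 7.66 ± 0.49 (SD, n = 3), it was at least 5.15-fold higher in hSRY-ON (limma, adjusted p = 0.00104). The bound sets the hSRY-ON mean against the lowest intensity detected on the hSRY-OFF arrays and holds only for background-corrected values, since without background correction the change of Cldn2 was 1.08 on the log2 scale (limma, adjusted p = 0.00133).

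Cldn4, a sealing claudin of many simple epithelia, including alveolar type II cells, was detected on all arrays and rose. On the hSRY-OFF arrays Cldn4 read 7.59, 7.63 and 7.48, and on the hSRY-ON arrays 9.39, 10.31 and 9.996. The hSRY-OFF arrays lay close together, and each hSRY-ON array was far above them. The change was 2.33 ± 0.23 (SE), or 5.03-fold (limma, adjusted p = 0.00142). Its neighbour Cldn3, also a sealing claudin, read 10.55, 10.85 and 10.70 in hSRY-OFF and 11.58, 11.60 and 11.44 in hSRY-ON. The groups of Cldn3 did not overlap either, but the change was smaller, at 0.84 ± 0.13 (SE), or 1.79-fold (limma, adjusted p = 0.00529).

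Cldn10, a claudin of which some isoforms form ion pores, was read by 4 probes, and 3 of them rose. At the probe ILMN_2515816 it read 10.73, 10.47 and 10.71 in hSRY-OFF and 12.84, 12.47 and 12.23 in hSRY-ON. All hSRY-ON arrays were above all hSRY-OFF arrays, with replicate 1 the highest. The change at this probe was 1.88 ± 0.18 (SE), or 3.67-fold (limma, adjusted p = 0.00133). At ILMN_2723576 Cldn10 changed by 2.05 ± 0.19 (SE), or 4.14-fold (limma, adjusted p = 0.00132), and at ILMN_1214954 by 1.90 ± 0.25 (SE), or 3.72-fold (limma, adjusted p = 0.00345). The fourth probe was not detected on enough arrays to be tested. The probes may read different transcripts of Cldn10, which the table does not tell.

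Cldn15, a pore-forming claudin known from the gut, was read by 3 probes, of which 2 could be tested and both rose. At ILMN_2674906 it read 6.86, 6.96 and 6.77 in hSRY-OFF and 9.10, 8.49 and 8.29 in hSRY-ON, a change of 1.76 ± 0.21 (SE), or 3.39-fold (limma, adjusted p = 0.00258). As for Cldn10, replicate 1 was the highest of the hSRY-ON arrays and no array of one group reached the other. At ILMN_2793817 the hSRY-OFF values were 6.44, 6.68 and 7.02 and the hSRY-ON values 8.27, 7.84 and 7.50. The change there was 1.15 ± 0.23 (SE; limma, adjusted p = 0.0132), and the call was lost without hSRY-OFF replicate 1 (1.02, limma, adjusted p = 0.0538) or replicate 2 (1.14, limma, adjusted p = 0.0529).

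Cldn1, the claudin that seals the skin barrier, read 6.9999, 7.15 and 7.12 in hSRY-OFF and 8.54, 8.27 and 8.48 in hSRY-ON. With 7.09 ± 0.08 against 8.43 ± 0.14 (SD, n = 3), the replicates of each group differed little and the groups lay far apart. The change was 1.34 ± 0.12 (SE), or 2.53-fold (limma, adjusted p = 0.00122). Cldn23, a less studied member of the family, read 6.75, 6.74 and 6.91 in hSRY-OFF and 7.94, 8.48 and 7.92 in hSRY-ON, again without overlap. Its change was 1.31 ± 0.18 (SE), or 2.48-fold (limma, adjusted p = 0.00364).

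Cldn6, a claudin of embryonic epithelia, stood close to the threshold. Its values were 6.51, 6.27 and 6.67 in hSRY-OFF and 7.07, 7.49 and 6.86 in hSRY-ON. The groups did not overlap, but the lowest hSRY-ON array was near the highest hSRY-OFF array. The change was 0.66 ± 0.19 (SE), or 1.57-fold (limma, adjusted p = 0.0441). Leaving out any one array other than hSRY-ON replicate 3 ended the call, with changes of 0.67, 0.55 and 0.74 without hSRY-OFF replicate 1, 2 or 3, and of 0.69 and 0.48 without hSRY-ON replicate 1 or 2 (limma, adjusted p from 0.0570 to 0.146). Cldn9, its neighbour on chromosome 17, changed by 0.14 (95% confidence interval -0.15 to 0.44) and was not called.

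Not every claudin rose. Cldn5, the endothelial claudin that the rule leaves out, was called lower, with a change of -0.67 (limma, adjusted p = 0.00947). Its groups did not overlap. Cldn18, whose lung isoform is a major tight junction protein of alveolar cells, read 12.62, 12.69 and 12.66 in hSRY-OFF and 12.50, 12.15 and 12.43 in hSRY-ON. Every hSRY-ON array was below every hSRY-OFF array, yet the change of -0.29 (95% confidence interval -0.60 to 0.02) did not pass the test (limma, adjusted p = 0.139). Cldn7, Cldn11 and Cldn12 were not called either, with changes of 0.25, 0.11 and 0.25, and in each the groups overlapped. For Cldn11 hSRY-ON replicate 3 stood alone at 8.71, above the 7.59 and 7.72 of the others, and for Cldn12 hSRY-ON replicate 1 did so at 8.48, above 7.63 and 7.31. Cldn8, Cldn13, Cldn14, Cldn16, Cldn17 and Cldn19 had no probe that could be tested.

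Occludin and most of the proteins beneath the claudins did not pass the test. Of 11 probes for the other tight junction and polarity genes, 10 could be tested, for 7 genes, and 2 probes of 1 gene rose while 0 fell (limma, with 3 higher and 2 lower at an unadjusted p under 0.05). That is 20.0% called, beside 26.9% of all probes, with a median change of -0.01. The gene that rose was Tjp3 (ZO-3), a zonula occludens scaffold of epithelia. At ILMN_2723524 Tjp3 read 7.04, 6.95 and 6.64 in hSRY-OFF and 7.63, 8.12 and 8.20 in hSRY-ON. The groups did not overlap and the change was 1.11 ± 0.19 (SE), or 2.16-fold (limma, adjusted p = 0.00791). At ILMN_2723523 it was 0.99 ± 0.19 (SE), or 1.98-fold (limma, adjusted p = 0.0109).

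Ocln, the tight junction protein occludin, read 8.13, 8.32 and 8.36 in hSRY-OFF and 8.34, 8.72 and 8.14 in hSRY-ON. The groups overlapped, and the change was 0.13 (95% confidence interval -0.28 to 0.53; limma, adjusted p = 0.617). Tjp1 (ZO-1), the scaffold that ties claudins and occludin to actin, read 6.34, 6.43 and 6.87 in hSRY-OFF and 6.82, 5.39 and 5.54 in hSRY-ON. Replicates 2 and 3 of hSRY-ON were below all hSRY-OFF arrays, and replicate 1 was among them. The change of Tjp1 was -0.63 (95% confidence interval -1.51 to 0.26) and was not called (limma, adjusted p = 0.250). Without hSRY-ON replicate 1 it was called lower, with a change of -1.10 (limma, adjusted p = 0.00924). That call rests on values near background, since hSRY-ON replicate 2 did not detect Tjp1 and replicate 3 was little above it. With all arrays but no background correction the change of Tjp1 was -0.197.

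The junctional adhesion molecule F11r (JAM-A) changed by -0.06 and was not called. The polarity gene Pard3 was read by 3 probes, with changes of 0.04, -0.05 and -0.80, none of them called. The last of these was called without hSRY-ON replicate 3 (-1.12, limma, adjusted p = 0.00443). That array was the only one of hSRY-ON to detect this probe, and without background correction its change was -0.23. Pard6b, a partner of Pard3 in the polarity complex, read 6.34, 6.23 and 5.35 in hSRY-OFF and 6.73, 6.80 and 6.49 in hSRY-ON. These groups did not overlap, but the low hSRY-OFF replicate 3 made the spread wide, and the change of 0.70 did not pass (limma, adjusted p = 0.0899). Marveld2 (tricellulin), which neighbours Ocln on chromosome 13, was not detected on enough arrays to be tested.

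Among the adherens junction probes tested, with Jup counted under the desmosomes, 0 were called higher, beside 13.6% of all probes. So few probes cannot set this count apart from that share. Of 17 probes for 9 genes, 10 could be tested, for 6 genes, and 3 probes of 2 genes fell (limma, with 5 lower and 0 higher at an unadjusted p under 0.05). That is 30.0% called lower, beside 13.3% of all probes. So few probes cannot set this share apart either. The calls were those of Ctnnd2, at or near background on hSRY-ON replicates 1 and 2, and a probe of Actn4. The median change was -0.59, and 6 of the 10 probes had groups that did not overlap (60.0%, beside 46.6%).

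**Figure D3:**
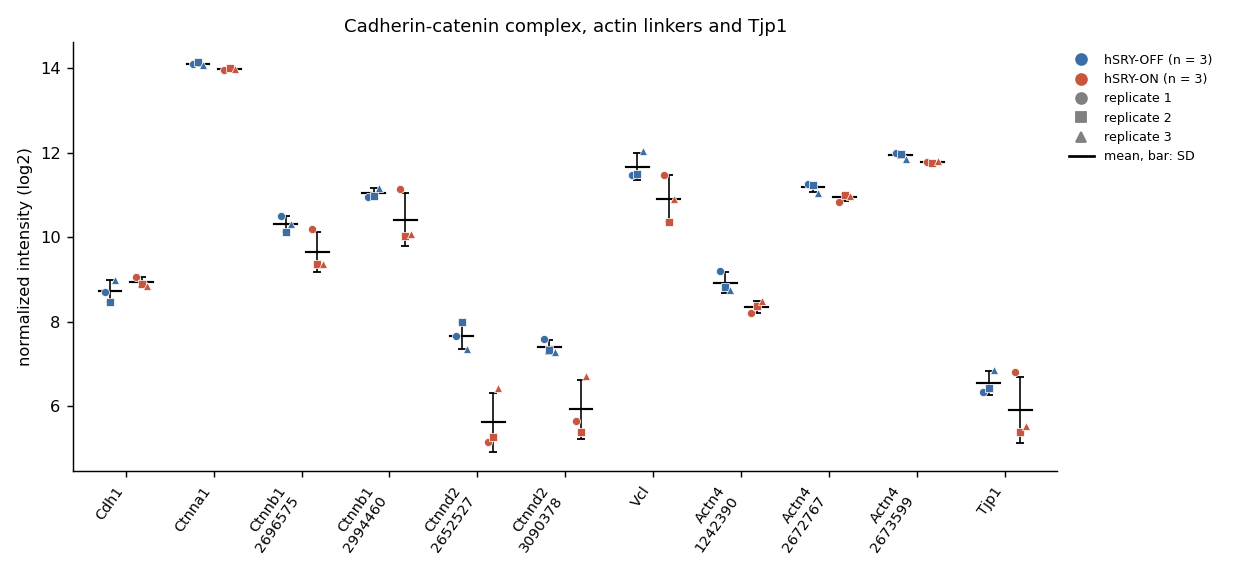
Normalized log2 intensity (y axis) of the tested adherens junction probes, with Tjp1 (x axis), on the 3 hSRY-OFF and 3 hSRY-ON arrays, with the mean and SD of each group; the marker shape gives the replicate. For Ctnnb1, Vcl and Tjp1 the circle of hSRY-ON replicate 1 lies among or near the hSRY-OFF points, above hSRY-ON replicates 2 and 3.

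Cdh1, which encodes E-cadherin, the adhesion molecule that defines epithelial contacts, read 8.70, 8.48 and 8.99 in hSRY-OFF and 9.07, 8.89 and 8.85 in hSRY-ON. The groups overlapped and the change was 0.22 (95% confidence interval -0.16 to 0.59; limma, adjusted p = 0.350). The interval leaves out the fitted change of Cldn3 (0.84) but overlaps the 95% confidence interval of Cldn3 (0.54 to 1.14). The difference between these genes was not tested. Ctnna1, the α-catenin that links the complex to actin, changed by -0.12 (95% confidence interval -0.37 to 0.13) and was not called.

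Ctnnb1 encodes β-catenin, which binds the tail of E-cadherin and also acts in Wnt signalling. At ILMN_2696575 it read 10.51, 10.14 and 10.31 in hSRY-OFF and 10.21, 9.38 and 9.38 in hSRY-ON, and at ILMN_2994460 it read 10.97, 10.98 and 11.18 against 11.14, 10.04 and 10.09. At both probes hSRY-ON replicates 2 and 3 were low and replicate 1 lay within the hSRY-OFF values. Neither passed the test, with changes of -0.66 (limma, adjusted p = 0.0843) and -0.62 (limma, adjusted p = 0.154). Vcl, the actin linker vinculin, showed hSRY-ON replicate 1 at 11.48 within the hSRY-OFF range of 11.47 to 12.05, and replicates 2 and 3 at 10.36 and 10.91 below it. The change of Vcl was -0.76 (limma, adjusted p = 0.101). Without hSRY-ON replicate 1 these 3 probes were called lower, the Ctnnb1 probes with changes of -0.94 (limma, adjusted p = 0.00703) and -0.97 (limma, adjusted p = 0.00456) and Vcl with -1.04 (limma, adjusted p = 0.0237). The number of junction probes called lower was 9 without that array, against 5 with it. Calls over all probes, in either direction, also grew, to 4442 without that array against 3728 with it.

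Ctnnd2 (δ-catenin), a relative of p120-catenin best known from neurons, fell at both probes that could be tested. At ILMN_2652527 it read 7.67, 8.01 and 7.36 in hSRY-OFF and 5.16, 5.28 and 6.43 in hSRY-ON. It was detected on all 3 hSRY-OFF arrays and on 1 hSRY-ON array, replicate 3, which was still below each hSRY-OFF array. The change was -2.05 ± 0.35 (SE; limma, adjusted p = 0.00765). At ILMN_3090378 Ctnnd2 changed by -1.48 ± 0.33 (SE; limma, adjusted p = 0.0182), and this call was lost without hSRY-OFF replicate 1 (-1.38, limma, adjusted p = 0.0684) or replicate 2 (-1.51, limma, adjusted p = 0.0590), or without hSRY-ON replicate 2 (-1.22, limma, adjusted p = 0.0517). The remaining probes of Ctnnd2 could not be tested.

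Actn4, the actin cross-linker α-actinin 4, had 3 probes, all lower on every hSRY-ON array than on every hSRY-OFF array, of which 1 passed the test. This probe, ILMN_1242390, read 9.21, 8.82 and 8.76 in hSRY-OFF and 8.22, 8.37 and 8.50 in hSRY-ON. Its change was -0.57 ± 0.16 (SE; limma, adjusted p = 0.0387), and the others changed by -0.24 and -0.17. The call depended on every array other than hSRY-ON replicate 3, since leaving out any one of the rest gave changes of -0.43, -0.63 and -0.65 (hSRY-OFF replicates 1, 2 and 3) and -0.50 and -0.56 (hSRY-ON replicates 1 and 2), with adjusted p from 0.0599 to 0.123 in limma. Ctnna2, Ctnna3 and Ctnnd1 could not be tested.

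Most desmosomal genes had no probe that passed the detection filter, which does not tell absent RNA from a probe that reads poorly. Of 23 probes for 14 genes, 7 probes of 5 genes could be tested, and 2 probes of 2 genes rose while 0 fell (limma, with 3 higher and 0 lower at an unadjusted p under 0.05). That is 28.6% called, beside 26.9% of all probes, with a median change of 0.17. Jup (plakoglobin), a catenin shared by desmosomes and adherens junctions, read 6.51, 6.13 and 6.36 in hSRY-OFF and 6.68, 7.25 and 7.16 in hSRY-ON. Pkp3, a plakophilin of the desmosomal plaque, read 6.27, 6.53 and 6.94 in hSRY-OFF and 7.21, 7.75 and 7.30 in hSRY-ON. In both genes the groups did not overlap, with little space between them. The change was 0.69 ± 0.19 (SE; limma, adjusted p = 0.0345) for Jup and 0.84 ± 0.22 (SE; limma, adjusted p = 0.0298) for Pkp3.

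Both desmosomal calls were lost when any 1 of several arrays was left out, while the changes stayed above 0. Jup was no longer called without hSRY-OFF replicate 1, 2 or 3 (0.78, 0.59 and 0.70) or without hSRY-ON replicate 2 or 3 (0.59 and 0.63), with adjusted p from 0.0678 to 0.123 in limma. Pkp3 was no longer called without hSRY-OFF replicate 1 or 2 (0.69 and 0.82) or hSRY-ON replicate 2 (0.68), with adjusted p from 0.0812 to 0.102 in limma. Dsp (desmoplakin), which ties the plaque to keratin, read 6.82, 6.47 and 6.87 in hSRY-OFF and 7.56, 6.68 and 6.23 in hSRY-ON. The hSRY-ON arrays lay on both sides of the hSRY-OFF arrays, with a change of 0.10 (95% confidence interval -0.66 to 0.86; limma, adjusted p = 0.840). Dsg2, the desmoglein of simple epithelia, changed by 0.17, and Pkp2, a plakophilin shared with the heart, by 0.14, 0.34 and -0.21 at 3 probes, none of them called. Dsc1, Dsc2, Dsc3, Dsg1a, Dsg1b, Dsg1c, Dsg4, Perp and Pkp1 could not be tested.

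Connexins were called about as often as all probes. Of 20 probes for 15 genes, 11 could be tested, for 9 genes, and 1 probe rose and 2 fell. That is 27.3% called, beside 26.9% of all probes, with 9.09% higher and 18.2% lower, beside 13.6% and 13.3%. The median change was 0.04.

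**Figure D4:**
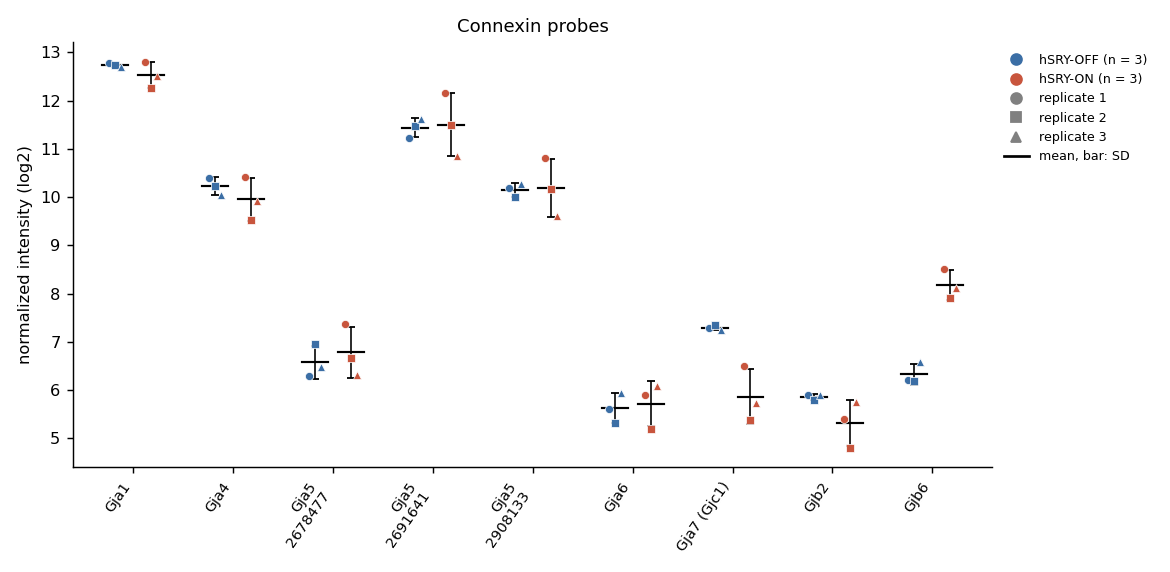
Normalized log2 intensity (y axis) of tested connexin probes (x axis) on the 3 hSRY-OFF and 3 hSRY-ON arrays, with the mean and SD of each group; the marker shape gives the replicate. Gjb6 stands higher in hSRY-ON without overlap, Gja7 lower without overlap, and at the Gja5 probes hSRY-ON replicate 1 is the highest of all 6 arrays.

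Gjb6 (Cx30), a connexin of skin, inner ear and other epithelia, read 6.21, 6.19 and 6.58 in hSRY-OFF and 8.51, 7.91 and 8.11 in hSRY-ON. Every hSRY-ON array was far above every hSRY-OFF array. The change was 1.85 ± 0.19 (SE), or 3.61-fold (limma, adjusted p = 0.00161). Gjb2 (Cx26), its neighbour on chromosome 14 and frequent partner in one channel, did not share this direction. Gjb2 read 5.89, 5.79 and 5.89 in hSRY-OFF and 5.39, 4.80 and 5.74 in hSRY-ON, near background, and was detected on 1 hSRY-ON array. Its change of -0.54 was not called (limma, adjusted p = 0.123), but was called without hSRY-ON replicate 3 (-0.76, limma, adjusted p = 0.0332).

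The probe named Gja7 on the array, an older symbol that RefSeq gives for Gjc1 (Cx45, known from heart and smooth muscle), read 7.29, 7.34 and 7.24 in hSRY-OFF and 6.49, 5.37 and 5.73 in hSRY-ON. All hSRY-ON arrays were lower, and 2 of the 3 detected it. The change was -1.43 ± 0.27 (SE; limma, adjusted p = 0.0106).

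Gja1 (Cx43), the most widely expressed connexin, read 12.78, 12.73 and 12.71 in hSRY-OFF and 12.81, 12.26 and 12.51 in hSRY-ON. The highest value of all came from hSRY-ON replicate 1, and the change of -0.21 (95% confidence interval -0.58 to 0.16) was not called (limma, adjusted p = 0.349). The vascular connexins Gja4 (Cx37) and Gja5 (Cx40) were not called, with a change of -0.27 for Gja4 and of 0.21, 0.06 and 0.04 at the probes of Gja5. Gja6 changed by 0.09 and was not called. Gja3, Gja10, Gjb1 and Gjb5 could not be tested.

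The spread between mice was wider in hSRY-ON lungs. The median SD of a junction probe was 0.169 in hSRY-OFF and 0.344 in hSRY-ON, and the ratio of these medians was 2.04, beside 1.72 over all probes tested. For the claudins this ratio was 3.49, from medians of 0.0985 in hSRY-OFF and 0.344 in hSRY-ON. Their hSRY-ON median was thus that of all junction probes, and only their hSRY-OFF median was smaller.

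Other genes of the same junctions, listed by function but with earlier results of these data known, gave a mixed picture. Of 21 tight junction partners tested, 8 rose and 5 fell, with a median change of 0.03 over their probes and 42.1% of the probes called. Cxadr, an adhesion molecule of epithelial tight junctions, changed by 1.41 at 1 of its probes (limma, adjusted p = 0.000694), and the scaffold Magi1 by 1.19 at 1 of its probes (limma, adjusted p = 0.00281). Among the 5 that fell, the scaffold Mpdz changed by -1.10 (limma, adjusted p = 0.00647) and -0.59 (limma, adjusted p = 0.0157) at its tested probes. Of 10 adherens junction partners tested, 1 rose and 1 fell. The one that fell was Cdh5 (the endothelial cadherin), with a change of -0.48 (limma, adjusted p = 0.0295). Of 7 desmosome and keratin partners tested, 5 rose and 0 fell (limma, with 7 probes higher and 2 lower at an unadjusted p under 0.05), with a median change of 0.45. They included Krt19, a keratin of simple and ductal epithelia, with a change of 1.18 (limma, adjusted p = 0.00162), Ppl (periplakin) with 0.86 (limma, adjusted p = 0.00668) and Krt14, a keratin of basal cells, with 2.07 (limma, adjusted p = 0.0163). Gjd3 and Panx1 were the only other gap junction and pannexin genes tested, and neither was called (limma, with 1 probe lower at an unadjusted p under 0.05).

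Transcription and splicing factors known to control junction genes moved in both directions. Of 13 tested, 6 rose, namely Grhl1, Grhl2, Ovol2, Elf3, Klf5 and Esrp1, which are known from epithelia. The 3 that fell were Zeb1, Zeb2 and Twist1, which are known to repress E-cadherin. The others were not called. The median change over their probes was 0.37, with 58.8% of the probes called. Esrp1, named Rbm35a on the array, read 10.92, 10.80 and 10.92 in hSRY-OFF and 11.68, 11.76 and 11.66 in hSRY-ON, a change of 0.82 ± 0.11 (SE; limma, adjusted p = 0.00350). Twist1 read 7.55, 7.13 and 7.26 in hSRY-OFF and 5.36, 6.18 and 5.72 in hSRY-ON, a change of -1.56 ± 0.22 (SE; limma, adjusted p = 0.00447). Zeb2 changed by -0.88 ± 0.13 (SE; limma, adjusted p = 0.00456) at the 1 of its probes that could be tested. In each of these genes the groups did not overlap. Whether the factors and the claudins are linked was not tested.

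**Figure D5:**
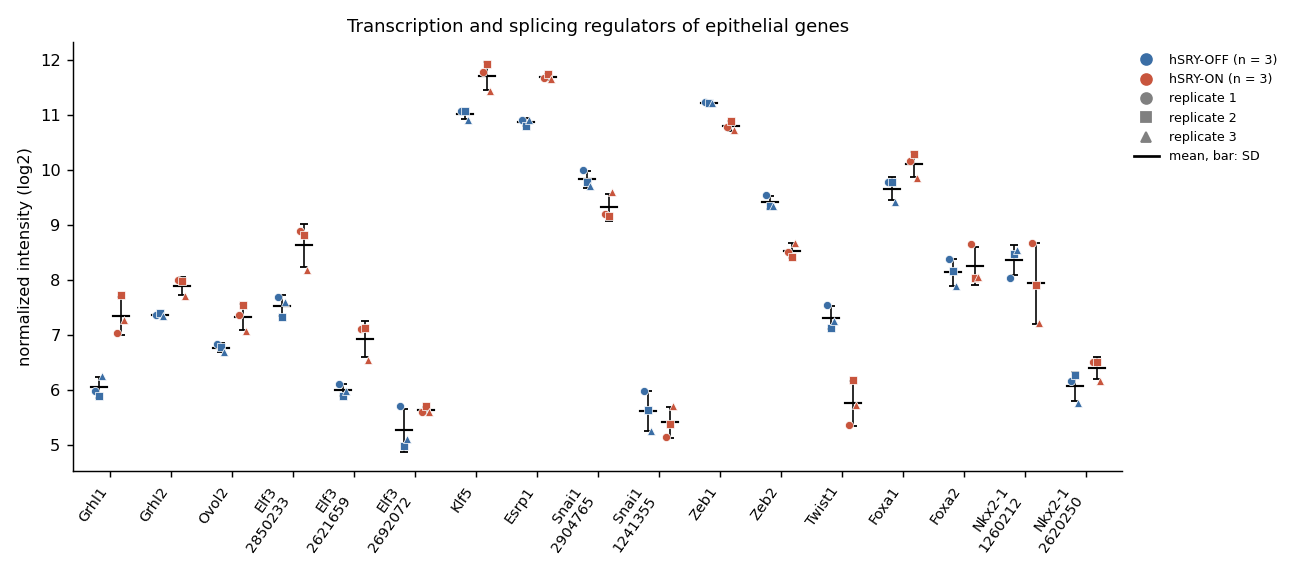
Normalized log2 intensity (y axis) of the tested probes of factors known to control epithelial junction genes (x axis) on the 3 hSRY-OFF and 3 hSRY-ON arrays, with the mean and SD of each group. Esrp1 and the other factors called higher lie above in hSRY-ON, and Zeb1, Zeb2 and Twist1 lie below, in each case at a called probe without overlap of the groups.

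Markers of several cell types moved beside the claudins, given here as the sum of the linear normalized intensities of a list on each array. Airway secretory markers ranged from 52238 to 54332 in hSRY-OFF and from 64263 to 78174 in hSRY-ON, with 3 of 4 genes called higher. Ciliated cell markers ranged from 3383 to 3767 and from 5795 to 6431, again with 3 of 4 genes higher. Mesothelial markers (Msln, Upk3b) showed 5512 to 5803 and 11007 to 16473, with 2 of 2 genes tested higher, and Lrrn4 was not detected on any array. All 3 lists were higher on every hSRY-ON array than on every hSRY-OFF array.

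Basal and squamous markers ranged from 134 to 166 in hSRY-OFF and from 313 to 798 in hSRY-ON. This rested on Krt14, since Trp63, Krt5 and Krt6a were not detected on any array. Alveolar type II markers ranged from 57676 to 63446 and from 67583 to 72131, with 2 of 7 genes higher, Sftpb and Abca3. By fitted change 5 of the 10 type II probes were above 0 and 5 below, with a median of 0.11. Sftpc changed by -0.25, with every hSRY-ON array below every hSRY-OFF array, and was not called (limma, adjusted p = 0.150). Of the type I markers 0 of 3 were called, also at an unadjusted p under 0.05 in limma. Their ranges of 41241 to 45002 and 44248 to 47840 overlapped. Macrophage markers rose in 3 of 5 genes, from sums of 1612 to 1720 to sums of 3140 to 5568.

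Other lists were lower beside the adherens junction probes and Gja7. Endothelial markers ranged from 40360 to 43553 in hSRY-OFF and from 28417 to 29660 in hSRY-ON, with 3 of 6 genes lower, and smooth muscle markers from 43028 to 47239 and from 20650 to 32110, with 2 of 3 genes lower. Proliferation markers ranged from 6496 to 8646 and from 2269 to 4779, with 4 of 4 genes lower. These groups did not overlap on any of the 3 lists. Cardiac muscle markers overlapped between the groups, at 6250 to 8225 and 3840 to 8638, with 1 of 6 genes higher and 1 lower. The part of these cell types in the changes of the junction genes was not tested.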

How the data were processed

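RNA from each lung was amplified, labelled with biotin and hybridised. The authors deposited, for each probe and array, a mean bead intensity on a linear scale, neither background-corrected nor normalized, and a detection p-value, the share of negative control probes brighter than the probe; the software that summarised the beads is not given in the sources used here. Groups and replicate numbers come from the labels. The study named TCC, which models counts. For these intensities the groups were compared instead with limma 3.58.1 (R 4.3.3), after neqc processing, that is, a normexp correction with negative-control moments inferred from detection p, an offset of 16, quantile normalization and log2. Quantile normalization removes any overall shift between groups, and the offset shrinks the changes of dim probes. Of 25697 probes, 13841 reached a detection p under 0.05 on 3 or more of the 6 arrays and were tested. lmFit and eBayes compared the groups, two-sided and without covariates, with Benjamini-Hochberg adjustment over all kept probes and a threshold of 0.05.

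Member probes were kept apart and their log2 changes never pooled across probes. A probe not detected in 1 group is given as a bound, the mean of the other group against a floor, which on each array is the lowest detected value or, if higher, the probe itself. Each member gene with a called probe is named with its values, as are Cdh1, Ctnnb1, Ocln, Tjp1, Cldn18, Dsp, Jup and Gja1 whatever their result, and up to 3 genes of smallest adjusted p of each related list. Further genes named with array values (Vcl, Pard6b, Gjb2) and the single values of Cldn11 and Cldn12 were chosen after their values were seen. The changes of Cldn5 and Mpdz were likewise added after they were seen. Some member and list genes that this rule takes in enter the counts but are not reported here by name. The members and lists were chosen with earlier results of these data known. Current symbols and promoter windows are from RefSeq (GRCm38.p6). The steps were tested on simulated data. No 2 arrays were identical. Same-numbered arrays of both groups did not deviate together (correlations of -0.107, 0.0957 and -0.0927), so replicate numbers were not taken as pairs.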

Additional observations from a re-analysis of the deposited data

How the results depend on the processing

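The alternatives were other background corrections, normalizations, filters and variance models, array weights, the replicate block and leaving out each array. Of the 21 junction probes called, 14 kept the call in every alternative and 0 changed sign. The junction probes called higher numbered 14 to 17 (16 as reported) and 12 to 15 with an array left out. Those called lower numbered 2 of the reported 5 when detection on all 6 arrays was required, since fewer probes were then tested, and 2 to 9 with an array left out (9 without hSRY-ON replicate 1). Claudin probes called higher, a count added after seeing the data, numbered 9 to 11 throughout. Over all probes, leaving out an array gave 1652 to 4442 calls, against 3728. With the replicate number as a block, 2655 probes were called, with 15 junction probes higher and 4 lower; Cldn6, Jup and Actn4 lost their call. These numbers are not known to pair the mice. Without background correction the changes of dim probes were smaller, such as 0.81 for Cldn1, 1.08 for Cldn2, 0.73 for Cldn23, 0.55 and 0.62 for Tjp3, 0.97 for Gjb6, -0.86 for Ctnnd2 and -0.57 for Gja7. The call of Cldn6 was also lost without background correction, with median scaling, without a filter and with a variance trend, that of Jup with median scaling and that of Actn4 without a filter or with array weights. Array weights added Ctnnb1 (-0.73) and Pard3 (-0.83) to the calls. At a probe of Pkp2 the change of 0.34 was called under 4 alternatives (limma, adjusted p from 0.0220 to 0.0481).

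Changes of sign occurred only among probes that were not called, and the cause was not tested. With median scaling these were Ctnna1 (0.073), Dsp (-0.00072) and Pard3 (-0.052), without background correction F11r (0.0048) and with array weights Gja5 (-0.00051). With an array left out, the changes ranged from -0.24 to 0.32 for Cldn11, -0.090 to 0.49 for Cldn12, -0.27 to 0.40 for Dsp, -0.52 to 0.23 for F11r, -0.088 to 0.37 for Gja6 and -0.034 to 0.25 for Ocln. They ranged from -0.079 to 0.44, -0.27 to 0.39 and -0.27 to 0.33 at the probes of Gja5, and from -0.067 to 0.12 and -0.28 to 0.15 at 2 probes of Pard3.

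The arrays give no counts. Signal over background limits Cldn2, Tjp1, a probe of Pard3, Ctnnd2, Gja7, Gjb2 and the 43 junction probes that could not be tested.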
